A study of Cavia porcellus with 44 samples.

Results

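The livers compared here came from 12 of 44 guinea pigs. They form a pair of groups that differed, by their labels, in the vitamin C (vitC) of the feed during regression of diet-induced non-alcoholic steatohepatitis (NASH). For the first 16 of 32 weeks all 12 ate a cholesterol-containing diet of 20% fat that held 50 mg vitC/kg, and then a diet of 3.8% fat. In these last weeks HFL/LFL animals (low fat, low vitC, n = 6) received 50 mg vitC/kg and HFL/LFH animals (low fat, high vitC, n = 6) received 2000 mg vitC/kg. The members were chosen by these labels alone. Animals were female Hartley guinea pigs, semi-fasted overnight before termination, and glucose and insulin tolerance had been tested before. HFL/LFL animals were pair-fed to HFL/HFL and HFL/LFH animals to HFL/HFH, so the vitC level and the partner group cannot be told apart. The 4 other groups enter as comparisons. LFH (n = 8) and HFH (n = 8) received 2000 mg vitC/kg throughout, with 3.8% and 20% fat, and HFL/HFL (n = 10) and HFL/HFH (n = 6) stayed on 20% fat after the same 16 weeks as the 12 animals, with 50 and 2000 mg vitC/kg.

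The liver of guinea pigs lacks the last enzyme of ascorbate synthesis, so vitC comes from feed. Ascorbate is a cofactor of iron-dependent hydroxylases, among them those that hydroxylate procollagen and the oxygen-sensing factor HIF1, and an antioxidant that is reduced again after use. In NASH, hepatocytes load lipid and secrete acute phase proteins, macrophages take up lipid, leukocytes enter the tissue and stellate cells lay down matrix. Regression after a change of feed reverses these states at different speeds.

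Counts of liver RNA per gene symbol were compared, with 1 library per animal. The 12 animals had total counts of 20901714 to 27487635, and the log2 total did not differ detectably between the groups (difference 0.021, two-sided exact permutation test, p = 0.773). For the library size after normalisation, used to scale all values, the log2 difference was 0.115 (p = 0.145 by the same test). A count of 3, taken as the floor, equals 0.125 to 0.174 CPM, the counts scaled to a common library size, which reflects counting alone. ALB, the plasma protein that defines hepatocytes, took 5.65% to 10.5% of the counts in HFL/LFL and 4.64% to 12.6% in HFL/LFH. In 3 animals it was lowest, at 5.65% in HFL/LFL animal 44, 4.64% in HFL/LFH animal 33 and 5.22% in HFL/LFH animal 43, against at least 7.05% in the other 9. Several counts are also given without these 3 animals. ALB in the animals that remain was 7.05% to 10.5% in HFL/LFL and 10.1% to 12.6% in HFL/LFH. Leaving the 3 out thus does not even out ALB between the groups.

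Few genes separated the groups. In the edgeR fit of all 44 animals, 17 of 7629 symbols tested (0.223%) passed an adjusted p of 0.05, of which 12 were higher (0.157%) and 5 lower (0.0655%) in HFL/LFL than in HFL/LFH. The higher genes were led by RELL1, LRG1, PHLDA1 and HACD4, and the lower genes by NYNRIN, ATP4A and GPC1. At an unadjusted p under 0.05 there were 498 symbols higher (6.53%) and 333 lower (4.36%), which are the shares to read the gene groups against. CPM of the 12 animals did not overlap between groups for 15 symbols higher in HFL/LFL (0.197%) and 22 lower (0.288%). The median log2 fold change over all symbols was 0.0047. Fold changes are given as HFL/LFL over HFL/LFH throughout, and SE is the standard error of the log2 fold change.

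The count of called genes depended on the fit and on single animals. It was 0 when the 12 animals were fitted alone (662 at an unadjusted p under 0.05), 38 with limma voom (11 of the 17 kept) and 80 with DESeq2 (all 17 kept). Without HFL/LFH animal 3 it fell to 3. Leaving out HFL/LFL animal 68 gave 4, HFL/LFH animal 4 gave 5, and HFL/LFL animal 49 or HFL/LFH animal 33 gave 8. Without HFL/LFL animal 17 it was 53, without HFL/LFH animal 43 it was 34, and without HFL/LFL animal 44 it was 30. RELL1, LRG1 and NYNRIN passed the threshold in all 12 fits that left out 1 animal, PHLDA1 in 10, and each of the other 13 in 2 to 8. Without the 3 animals lowest in ALB, 9 genes were called, 7 of them among the 17.

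RELL1, a membrane protein related to RELT of the tumour necrosis factor receptor family, had the smallest p. It was 10.2 to 14.4 CPM in HFL/LFL (median 11.8) and 5.30 to 8.79 CPM in HFL/LFH (median 6.98), and the groups did not overlap (log2 fold change 0.80 ± 0.14 (SE), adjusted p = 0.0034). NYNRIN, which carries domains of retroviral origin, was lower. Its values were 89.8 to 178 CPM in HFL/LFL (median 135) and 181 to 269 CPM in HFL/LFH (median 211), and the groups did not overlap (log2 fold change -0.70 ± 0.13 (SE), adjusted p = 0.00648). In lifelong feeding RELL1 was called higher on high fat (HFH over LFH, log2 fold change 1.46 ± 0.12 (SE)) and NYNRIN lower (-0.75 ± 0.11), in animals that do not enter the vitC comparison.

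Acute phase genes were among those called. Hepatocytes raise the output of these plasma proteins in inflammation, mainly under IL6 and STAT3. Of 30 listed genes 14 were tested, 3 were called higher and none lower, 8 were higher at an unadjusted p under 0.05, and the median log2 fold change was 0.82. That median lay between 0.60 and 0.97 with 1 animal left out. LRG1, a secreted leucine-rich glycoprotein, was 74.9 to 790.0 CPM in HFL/LFL (median 259.8) and 39.4 to 131 CPM in HFL/LFH (median 81.7) (log2 fold change 2.14 ± 0.37 (SE), adjusted p = 0.0034). HFL/LFL animals 53 (790.0 CPM) and 49 (617 CPM) were highest and animal 44 (74.9 CPM) lowest. HPX, which binds free heme, was 2469 to 12875 CPM in HFL/LFL (median 5579.7) and 1854 to 3558 CPM in HFL/LFH (median 2717) (log2 fold change 1.29 ± 0.30 (SE), adjusted p = 0.0438). APCS, the pentraxin serum amyloid P, was 270.0 to 841 CPM in HFL/LFL (median 473) and 153 to 324 CPM in HFL/LFH (median 221) (log2 fold change 1.07 ± 0.24 (SE), adjusted p = 0.038). CP, the copper ferroxidase ceruloplasmin, missed the threshold with values of 1372 to 5578 CPM in HFL/LFL (median 4067) and 817 to 2360.3 CPM in HFL/LFH (median 1350.2) (log2 fold change 1.28 ± 0.31 (SE), adjusted p = 0.0543). For LRG1, HPX, APCS and CP, animal 44, one of the 3 lowest in ALB, was the lone HFL/LFL animal within the range of HFL/LFH.

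**Figure D1:**
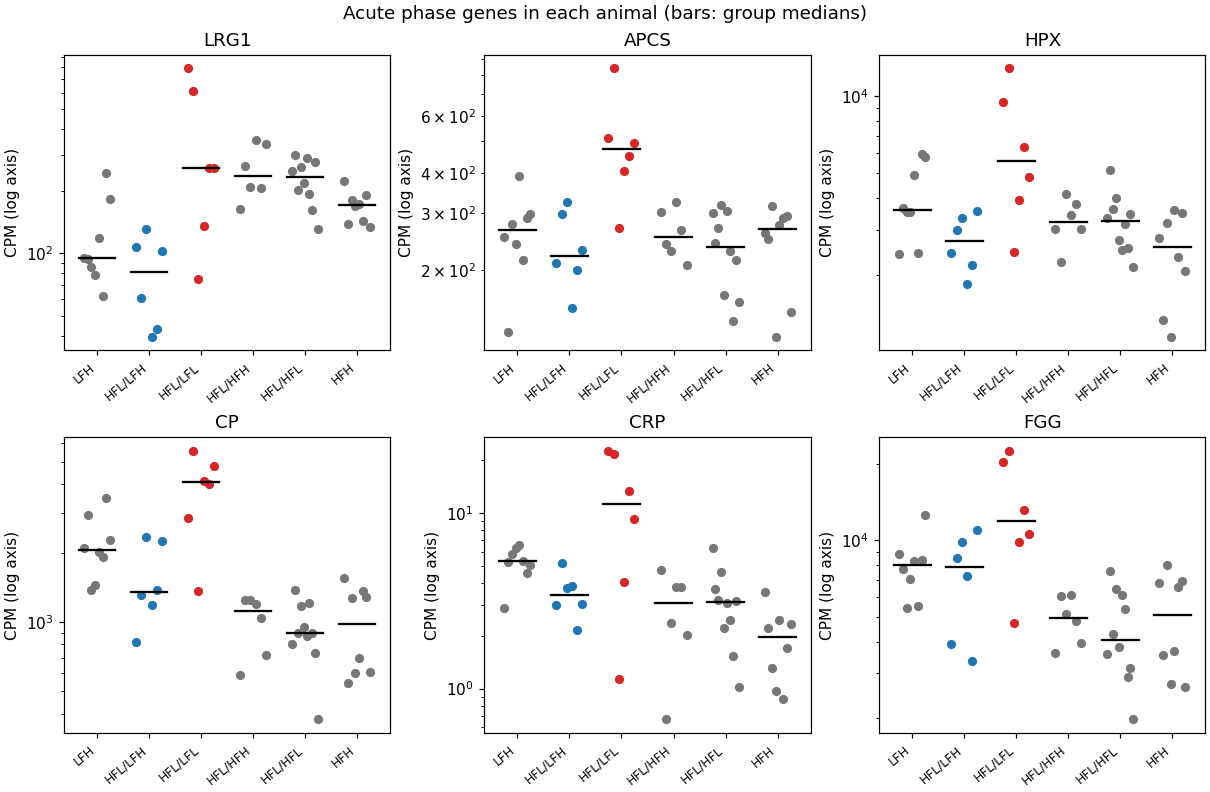
CPM (log axis) of 6 acute phase genes in each animal of the 6 groups, with black bars at group medians and the vitC pair in colour. HFL/LFL medians exceeded HFL/LFH medians for all 6, as for LRG1 at 259.8 against 81.7 CPM, while medians of LRG1 on high fat feed were 235 CPM in HFL/HFL and 237 CPM in HFL/HFH.

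The remaining acute phase genes divided. CRP, another pentraxin, was 1.14 to 22.7 CPM in HFL/LFL (median 11.3) and 2.16 to 5.17 CPM in HFL/LFH (median 3.41) (log2 fold change 1.78 ± 0.45 (SE), unadjusted p = 2.92e-04, adjusted p = 0.0636). The paper states that guinea pig CRP has not been described as an acute phase reactant in vivo. FGG, the fibrinogen gamma chain, was 4723 to 22479 CPM in HFL/LFL (median 11904) and 3368 to 10974 CPM in HFL/LFH (median 7859) (log2 fold change 0.89 ± 0.33 (SE), unadjusted p = 0.00994, adjusted p = 0.251), and SERPINA10, an inhibitor of clotting factor Xa, was 451 to 1424 CPM in HFL/LFL (median 793) and 278 to 749 CPM in HFL/LFH (median 479) (log2 fold change 0.74 ± 0.24 (SE), unadjusted p = 0.00405, adjusted p = 0.18). In contrast, intervals of the log2 fold change included 0 for CFB (-0.19 to 0.73), SERPINA3 (-0.22 to 0.79), SERPINA1 (-0.22 to 0.72) and the iron hormone HAMP (-1.84 to 0.69). All such intervals are at 95%.

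Upstream of these genes little was measured. Of 25 genes of IL6 and STAT3 signaling 4 were tested, and none passed even an unadjusted p of 0.05, although 2 did without HFL/LFH animal 43 and 1 without HFL/LFH animal 58, without HFL/LFL animal 13 or 53, or without the 3 animals lowest in ALB. SOCS3, a feedback inhibitor induced by STAT3, was 15.1 to 23.2 CPM in HFL/LFL (median 18.2) and 4.04 to 22.3 CPM in HFL/LFH (median 12.9) (log2 fold change 0.49 ± 0.30 (SE), unadjusted p = 0.113, adjusted p = 0.605). With 1 animal left out its log2 fold change lay between 0.30 and 0.69. IL6R, the receptor subunit, differed by 0.0045 ± 0.34 (SE) on the log2 scale. Among plasma proteins that fall in inflammation, 5 were tested and 1 was above 0, with a median log2 fold change of -0.32. With 1 animal left out that median lay between -0.39 and -0.20, and 0 to 2 members were above 0. APOA2, a protein of high density lipoprotein, was 819.9 to 1590.5 CPM in HFL/LFL (median 1141) and 1426 to 2283 CPM in HFL/LFH (median 1634) (log2 fold change -0.60 ± 0.22 (SE), unadjusted p = 0.00926, adjusted p = 0.246).

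Neutrophil genes varied among the animals of both groups. MMP25, a membrane-anchored protease of neutrophils, was called, with 1.48 to 8.29 CPM in HFL/LFL (median 2.43) and 0.252 to 1.35 CPM in HFL/LFH (median 0.884) and no overlap (log2 fold change 2.06 ± 0.43 (SE), adjusted p = 0.0232). The other listed genes did not pass the threshold, and 5 of 15 tested, MMP25 included, were higher at an unadjusted p under 0.05. That count was 4 without HFL/LFH animal 4 or HFL/LFL animal 44, 9 without HFL/LFH animal 43, and 10 without the 3 animals lowest in ALB. S100A8 and S100A9 form calprotectin. S100A8 was 6.58, 6.67 and 8.53 CPM in HFL/LFL animals 53, 49 and 68, and at most 0.937 CPM in the other 3, against 0 to 0.846 CPM in HFL/LFH (median 0.477) (log2 fold change 3.18 ± 0.76 (SE), unadjusted p = 1.37e-04, adjusted p = 0.0543). S100A9 was 1.22 to 14.3 CPM in HFL/LFL (median 3.71) and 0 to 4.18 CPM in HFL/LFH (median 0.339) (log2 fold change 2.62 ± 0.81 (SE), unadjusted p = 0.00242, adjusted p = 0.152), and without HFL/LFH animal 43, the highest of its group, its log2 fold change was 4.27 (adjusted p = 0.0224). CSF3R, the receptor of granulocyte colony-stimulating factor, was 9.05 to 29.2 CPM in HFL/LFL (median 18.9) and 3.97 to 15.7 CPM in HFL/LFH (median 7.31) (log2 fold change 1.12 ± 0.42 (SE), unadjusted p = 0.0102, adjusted p = 0.252). MPO, a granule enzyme of precursors, was the member lower at an unadjusted p under 0.05. It had 0 counts over all HFL/LFL animals and 21 over all HFL/LFH animals, and no fold is given. The median log2 fold change of the list was 0.87, and 0.87 with MPO set to the bound that the floor over the group gives. With 1 animal left out that median lay between 0.62 and 1.15. Summed over the list, levels were 188 to 270.1 CPM (median 232) in HFL/LFL and 137 to 313 CPM (median 161) in HFL/LFH, and the highest sum was that of HFL/LFH animal 33. In bulk liver, more cells of a type and more RNA per cell cannot be told apart, here and for every cell type below.

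The highest values of interferon-induced genes came from 1 animal. CXCL11, a chemokine that attracts T cells, was called (log2 fold change 4.70 ± 1.06 (SE), adjusted p = 0.038) and is counted in the monocyte and chemokine list. Its level was 12.9 CPM in HFL/LFL animal 68 and at most 0.566 CPM in the other 5, and 5 of the 6 HFL/LFH animals were at or under the floor. Without animal 68 the log2 fold change was 1.97 and adjusted p = 0.432. IDO1, which degrades tryptophan, was 226 CPM in animal 68 and at most 6.38 CPM in the other 5, against 0.871 to 4.45 CPM in HFL/LFH (median 2.20) (log2 fold change 4.06 ± 0.98 (SE), adjusted p = 0.0543). Without animal 68 its log2 fold change was 0.80. CXCL10 was 275 CPM in animal 68 and at most 24.2 CPM in the other 5 (log2 fold change 2.68 ± 0.77 (SE), unadjusted p = 0.00108, adjusted p = 0.12), and without animal 68 its log2 fold change was 0.84 (adjusted p = 0.744). Over the list of interferon-induced genes 15 of 17 tested had fold changes above 0, with a median of 0.39, and 6 were higher at an unadjusted p under 0.05. Without animal 68 the median was 0.19 and 3 members were, and without the 3 animals lowest in ALB the median was 0.67 and 8 were. The immunoproteasome subunit PSMB9 was 48.6 to 169 CPM in HFL/LFL (median 63.5) and 35.3 to 56.7 CPM in HFL/LFH (median 44.8) (log2 fold change 0.79 ± 0.22 (SE), unadjusted p = 9.71e-04, adjusted p = 0.114), and without animal 68 its log2 fold change was 0.42 (adjusted p = 0.443).

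Genes of lipid-associated macrophages, which take up lipid and debris in fatty liver, had fold changes mostly above 0, though none passed the threshold. Of 23 listed 14 were tested, 12 had fold changes above 0 and 9 were higher at an unadjusted p under 0.05. The median log2 fold change was 0.83, and 0.79 without the 3 animals lowest in ALB. The summed level of the list ran the other way, at 36549 to 46094 CPM (median 41390.5) in HFL/LFL and 44849 to 57258 CPM (median 48188) in HFL/LFH, and most of that sum came from 1 member with a fold change below 0. With 1 animal left out the median lay between 0.69 and 0.96. FABP5, a fatty acid carrier, was 14.98 to 39.8 CPM in HFL/LFL (median 31.5) and 4.18 to 15.9 CPM in HFL/LFH (median 11.4) (log2 fold change 1.40 ± 0.35 (SE), unadjusted p = 2.66e-04, adjusted p = 0.0636). CLEC7A, the beta-glucan receptor dectin 1, was 1.72 to 4.91 CPM in HFL/LFL (median 2.85) and 0.353 to 1.73 CPM in HFL/LFH (median 0.900) (log2 fold change 1.60 ± 0.43 (SE), unadjusted p = 5.20e-04, adjusted p = 0.0806). LGALS3, the lectin galectin 3, was 59.4 to 122 CPM in HFL/LFL (median 94.7) and 17.9 to 80.8 CPM in HFL/LFH (median 43.3) (log2 fold change 1.01 ± 0.31 (SE), unadjusted p = 0.00192, adjusted p = 0.14), and the scavenger receptor MSR1 was 63.01 to 129.5 CPM in HFL/LFL (median 112) and 44.1 to 77.5 CPM in HFL/LFH (median 58.6) (log2 fold change 0.74 ± 0.21 (SE), unadjusted p = 0.00126, adjusted p = 0.125). CTSD, a lysosomal protease, was 1499 to 1952 CPM in HFL/LFL (median 1812) and 986 to 1499 CPM in HFL/LFH (median 1316) (log2 fold change 0.45 ± 0.16 (SE), unadjusted p = 0.00835, adjusted p = 0.241), without overlap, although the nearest animals of the groups were less than 1 CPM apart. TREM2, the receptor that marks these macrophages, had an interval of -0.20 to 1.74 around 0.77, which was 1.56 without HFL/LFH animal 33 and 0.43 without HFL/LFL animal 44. HFL/LFL animals 44, 49 and 13 had the highest values of FABP5 and LGALS3, animal 17 lay within the HFL/LFH range for both, and animals 53 and 68 did so for LGALS3. PLIN2, which coats lipid droplets in hepatocytes too, was 45.8 to 327 CPM in HFL/LFL (median 76.9) and 35.8 to 104 CPM in HFL/LFH (median 58.1) (log2 fold change 0.97 ± 0.34 (SE), unadjusted p = 0.00632, adjusted p = 0.22), highest in animals 49 and 53, and without animal 49 its log2 fold change was 0.42 (adjusted p = 0.798).

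**Figure D2:**
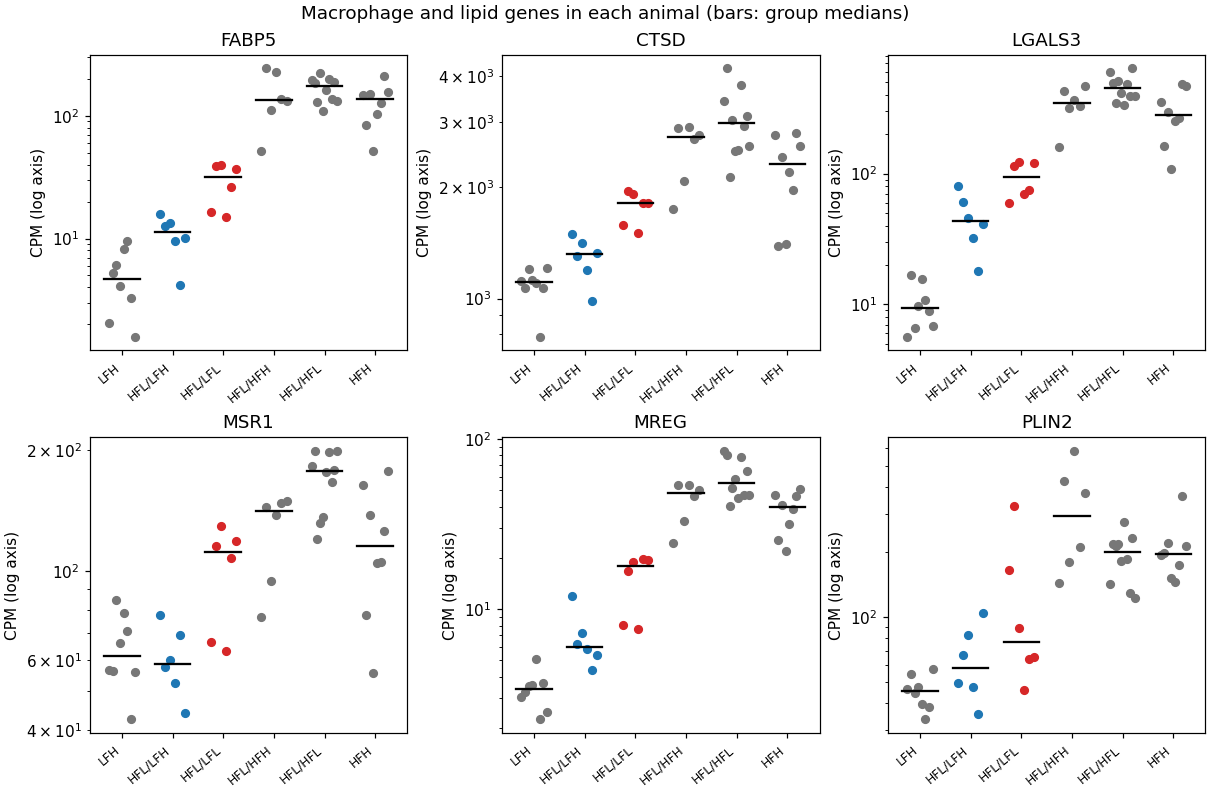
CPM (log axis) of 6 macrophage and lipid genes in each animal of the 6 groups, with black bars at group medians and the vitC pair in colour. The median of FABP5 was 4.69 CPM in LFH, 11.4 in HFL/LFH, 31.5 in HFL/LFL and 138 in HFH, so HFL/LFL lay between the lifelong groups.

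General macrophage markers followed the same direction. All 11 tested of 25 listed had fold changes above 0, 5 of them at an unadjusted p under 0.05, with a median of 0.48. Without the 3 animals lowest in ALB 10 were above 0, 7 of them at that level, and the median was 0.64. LAPTM5, a lysosomal membrane protein of leukocytes, was 74.6 to 115 CPM in HFL/LFL (median 91.04) and 46.3 to 91.2 CPM in HFL/LFH (median 63.8) (log2 fold change 0.51 ± 0.17 (SE), unadjusted p = 0.00378, adjusted p = 0.177). CYBB, the phagocyte oxidase subunit, was 27.2 to 76.2 CPM in HFL/LFL (median 65.02) and 18.2 to 46.1 CPM in HFL/LFH (median 30.5) (log2 fold change 0.82 ± 0.28 (SE), unadjusted p = 0.00532, adjusted p = 0.21), and the complement subunit C1QB was 167 to 363 CPM in HFL/LFL (median 238) and 94.1 to 219 CPM in HFL/LFH (median 175) (log2 fold change 0.59 ± 0.22 (SE), unadjusted p = 0.0097, adjusted p = 0.248). The summed level of the list was 1378 to 2655 CPM (median 2042) in HFL/LFL and 986 to 1924 CPM (median 1496) in HFL/LFH, so the groups overlapped. CD163, a scavenger receptor of resident macrophages, was near the floor, with means of 0.202 and 0.169 CPM.

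Antigen presentation genes lay above 0 throughout. The list holds class II major histocompatibility genes and dendritic cell receptors, and all 18 tested of 26 listed had fold changes above 0, with a median of 0.54. With another normalisation, or with some single animals left out, 17 did. None was called, and 11 were higher at an unadjusted p under 0.05. That count was 8 without HFL/LFL animal 44 or 68, and 10 without the 3 animals lowest in ALB. LY75, the dendritic cell uptake receptor, was 1.41 to 8.62 CPM in HFL/LFL (median 4.36) and 0.976 to 2.85 CPM in HFL/LFH (median 1.62) (log2 fold change 1.45 ± 0.38 (SE), unadjusted p = 4.30e-04, adjusted p = 0.0723), and its counts cannot be told from those of the read-through LY75.CD302. TLR8, a sensor of single-stranded RNA, was 5.52 to 15.97 CPM in HFL/LFL (median 11.4) and 3.18 to 7.30 CPM in HFL/LFH (median 4.17) (log2 fold change 1.35 ± 0.41 (SE), unadjusted p = 0.002, adjusted p = 0.14). CD74, the invariant chain, was 716 to 1573 CPM in HFL/LFL (median 851) and 370.5 to 1223 CPM in HFL/LFH (median 646) (log2 fold change 0.54 ± 0.26 (SE), unadjusted p = 0.0419, adjusted p = 0.426). HFL/LFL animal 53 was lowest of its group for both LY75 and CD74, and HFL/LFH animal 33 exceeded 4 of the 6 HFL/LFL animals for CD74. CD1B, among those at an unadjusted p under 0.05, had 15 counts over all HFL/LFL animals and 0 over all HFL/LFH animals, and with it at its bound the median was 0.54.

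Lymphocyte genes were mixed. For B and plasma cells 4 of 13 tested were higher at an unadjusted p under 0.05, among them MS4A1, the B cell antigen CD20, at 2.09 to 8.45 CPM in HFL/LFL (median 4.31) and 1.06 to 4.37 CPM in HFL/LFH (median 1.60) (log2 fold change 1.30 ± 0.40 (SE), unadjusted p = 0.00252, adjusted p = 0.152), but CD79A had an interval of -0.50 to 0.22. For T and NK cells 2 of 20 were, LCP2 (log2 fold change 1.02 ± 0.26 (SE), unadjusted p = 2.98e-04, adjusted p = 0.0636) and SLAMF7 (log2 fold change 1.11 ± 0.33 (SE), unadjusted p = 0.00169, adjusted p = 0.133), both of which other leukocytes also express. SLAMF7 did not overlap, with 22.1 to 51.6 CPM in HFL/LFL (median 33.1) and 11.01 to 20.6 CPM in HFL/LFH (median 15.5). The T cell receptor chains CD3D, CD3G and CD3E had fold changes of -0.014 ± 0.43 (SE), 0.084 ± 0.32 (SE) and -0.40 ± 0.23 (SE) on the log2 scale. Monocyte and chemokine genes had 5 of 17 higher at an unadjusted p under 0.05 (3 without HFL/LFL animal 68). Its 1 call was CXCL11, described above, and it was lost without that animal. Another member, the chemerin receptor CMKLR1, was 15.9 to 30.8 CPM in HFL/LFL (median 23.2) and 12.6 to 17.5 CPM in HFL/LFH (median 14.9) (log2 fold change 0.64 ± 0.18 (SE), unadjusted p = 9.25e-04, adjusted p = 0.11). CCL2, the main monocyte attractant, had an interval of -1.14 to 0.63.

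**Figure D3:**
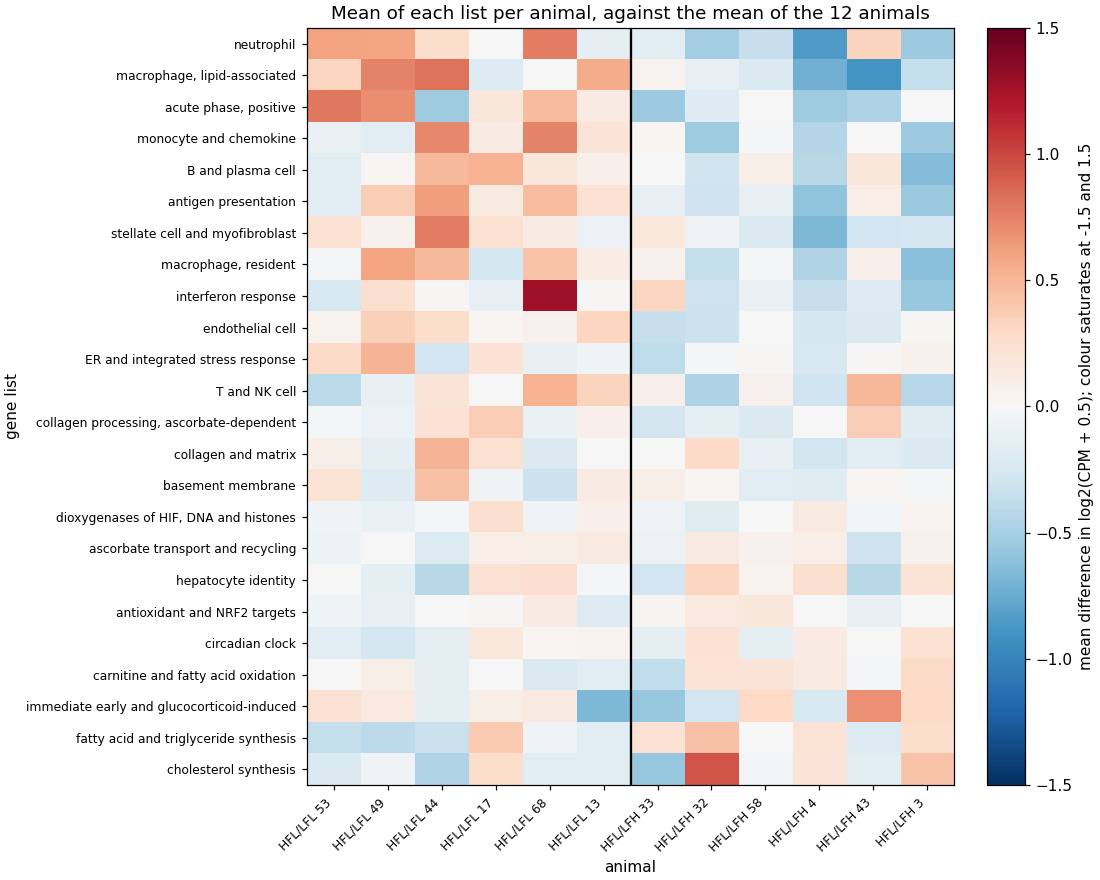
Mean over the members of 24 gene lists (rows) in each of the 12 animals (columns), as the difference in log2(CPM + 0.5) from the 12-animal mean. The acute phase row is highest in HFL/LFL animals 53 (0.80) and 49 (0.70), the interferon row in animal 68 (1.27) and the lipid-associated macrophage row in animal 44 (0.82).

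Among matrix genes no list member was called outside the proteases. NID1, which links laminin and type IV collagen, was just outside the threshold at 280.3 to 804 CPM in HFL/LFL (median 501) and 240.4 to 333 CPM in HFL/LFH (median 309.6) (log2 fold change 0.78 ± 0.18 (SE), unadjusted p = 1.26e-04, adjusted p = 0.0532), and all HFL/LFL animals but 44 lay above the HFL/LFH range. COL4A2, a chain of type IV collagen, was 119 to 187 CPM in HFL/LFL (median 164) and 80.8 to 144 CPM in HFL/LFH (median 89.6) (log2 fold change 0.65 ± 0.21 (SE), unadjusted p = 0.00373, adjusted p = 0.177), and the laminin chain LAMC1 was 51.2 to 69.3 CPM in HFL/LFL (median 54.7) and 30.98 to 51.3 CPM in HFL/LFH (median 38.2) (log2 fold change 0.56 ± 0.20 (SE), unadjusted p = 0.00704, adjusted p = 0.228). LAMB3, another laminin chain, had a fold change in the opposite direction (log2 fold change -0.46 ± 0.21 (SE), unadjusted p = 0.0352, adjusted p = 0.403). The median of the 13 members tested was 0.037, and it lay between -0.062 and 0.24 with 1 animal left out. Among 20 tested members of the collagen and matrix list 2 were higher at an unadjusted p under 0.05, FBLN1 (log2 fold change 0.62 ± 0.19 (SE), unadjusted p = 0.00224, adjusted p = 0.149) and THBS1 (log2 fold change 0.67 ± 0.30 (SE), unadjusted p = 0.0302, adjusted p = 0.379). THBS1, a matricellular protein, was 90.5 CPM in HFL/LFL animal 17 and at most 30.97 CPM in the other 5, and without that animal its log2 fold change was 0.20 (adjusted p = 0.851). With 1 animal left out 1 to 3 members of the list were at that level. Intervals included 0 for the fibrillar COL5A2 (-0.43 to 0.52), COL6A2 (-1.07 to 0.54), LUM (-0.19 to 0.82), SPARC (-0.19 to 0.92) and FN1 (-0.44 to 0.95). COL1A1, COL1A2 and COL3A1 were not analysed here.

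Stellate cell and endothelial markers lay above 0 on balance. Of 15 stellate cell and myofibroblast genes tested 14 had fold changes above 0, 6 at an unadjusted p under 0.05, with a median of 0.51 that was 0.24 without HFL/LFL animal 44. Without HFL/LFH animal 4, 3 were at that level, and without the 3 animals lowest in ALB 5 were. RGS5, a pericyte regulator of G protein signaling, was 153 to 296 CPM in HFL/LFL (median 229.9) and 122 to 179 CPM in HFL/LFH (median 145) (log2 fold change 0.62 ± 0.20 (SE), unadjusted p = 0.00327, adjusted p = 0.167), and ACTA2, the smooth muscle actin of myofibroblasts, was 58.1 to 218 CPM in HFL/LFL (median 202) and 33.6 to 183 CPM in HFL/LFH (median 77.5) (log2 fold change 0.92 ± 0.43 (SE), unadjusted p = 0.0357, adjusted p = 0.407). Of 12 endothelial genes tested 6 were higher at an unadjusted p under 0.05, or 4 without the 3 animals lowest in ALB. PECAM1, the junctional antigen CD31, did not overlap, with 132 to 161 CPM in HFL/LFL (median 155) and 120.0 to 131 CPM in HFL/LFH (median 125) (log2 fold change 0.29 ± 0.11 (SE), unadjusted p = 0.00967, adjusted p = 0.248). ICAM2 and FLT1 were also higher by point estimate (0.77 ± 0.23 (SE) and 0.52 ± 0.18 (SE)), whereas the sinusoidal markers LYVE1 (-0.48 to 0.51) and KDR (-0.33 to 0.44) had intervals around 0.

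Genes of enzymes that use ascorbate passed no threshold. None of the 6 procollagen hydroxylases tested passed an unadjusted p of 0.05. The interval of the log2 fold change was -0.57 to 0.85 for P4HA1, -0.088 to 0.50 for P4HA2 and -0.67 to 1.19 for P4HA3, the catalytic prolyl 4-hydroxylase subunits. It was -0.17 to 1.21 for the lysyl hydroxylase PLOD2, and -0.61 to 0.39 and -0.34 to 0.52 for P3H1 and P3H2, the prolyl 3-hydroxylases. The same held for all 10 dioxygenases acting on HIF, DNA or histones that were tested, as for the HIF prolyl hydroxylase EGLN1 (-0.31 to 0.41), and for the 8 metabolic enzymes, as for BBOX1 of carnitine synthesis (-0.65 to 0.40). Without the 3 animals lowest in ALB 1 of the procollagen hydroxylases and 1 of these dioxygenases were higher at that level. A p that misses the threshold does not show that these levels were alike.

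Of 11 genes of ascorbate transport and recycling none was called. SLC23A2, the sodium-dependent ascorbate carrier of most tissues, was 67.1 to 104 CPM in HFL/LFL (median 78.5) and 44.8 to 73.2 CPM in HFL/LFH (median 58.5) (log2 fold change 0.45 ± 0.18 (SE), unadjusted p = 0.015, adjusted p = 0.295), and 0.42 without the 3 animals lowest in ALB (unadjusted p = 0.0532). SLC2A1, a glucose carrier that also admits dehydroascorbate, was 13.8 to 28.1 CPM in HFL/LFL (median 20.1) and 17.4 to 44.4 CPM in HFL/LFH (median 23.7) (log2 fold change -0.45 ± 0.22 (SE), unadjusted p = 0.0446, adjusted p = 0.436), with log2 fold changes of -0.27 without HFL/LFH animal 4 and -0.57 without the 3 animals lowest in ALB. GLRX and PDIA3, thiol enzymes able to reduce dehydroascorbate, had fold changes of 0.34 ± 0.15 (SE) and 0.41 ± 0.16 (SE) (unadjusted p = 0.0318 and 0.015, or 0.0547 and 0.0243 without those 3). Of the list 3 members of the list were higher at an unadjusted p under 0.05, and 1 without those 3 animals or without HFL/LFL animal 49. For GSTO1 the fold change was -0.36 ± 0.19 (SE) and for SLC23A3 -0.19 ± 0.11 (SE), both below 0 with intervals that included it. SLC2A2, CYB5R3, AKR1A1, GSTO2 and TXN had unadjusted p of 0.185 to 0.948.

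Cholesterol synthesis genes lay mostly below 0. Of 15 genes tested 13 had fold changes below 0, 6 at an unadjusted p under 0.05, with a median of -0.40. None was called. NSDHL, a sterol dehydrogenase, was 29.7 to 59.2 CPM in HFL/LFL (median 44.8) and 25.4 to 223 CPM in HFL/LFH (median 89.4) (log2 fold change -1.15 ± 0.30 (SE), unadjusted p = 4.36e-04, adjusted p = 0.0723). The sterol reductase TM7SF2 was 207 to 429 CPM in HFL/LFL (median 275) and 293 to 527 CPM in HFL/LFH (median 451) (log2 fold change -0.52 ± 0.15 (SE), unadjusted p = 0.00121, adjusted p = 0.125), and mevalonate kinase MVK was 44.995 to 74.6 CPM in HFL/LFL (median 61.7) and 55.5 to 115 CPM in HFL/LFH (median 85.03) (log2 fold change -0.45 ± 0.14 (SE), unadjusted p = 0.00311, adjusted p = 0.165). SQLE, squalene epoxidase, was 58.9 to 131 CPM in HFL/LFL (median 76.2) and 61.9 to 260.3 CPM in HFL/LFH (median 99.01) (log2 fold change -0.60 ± 0.22 (SE), unadjusted p = 0.00872, adjusted p = 0.241), counted together with ZNF572. HFL/LFH animal 32 was highest for NSDHL and SQLE, and without it the log2 fold changes were -0.71 (adjusted p = 0.322) and -0.24 (adjusted p = 0.741). The median of the list was -0.18 when HFL/LFH animal 32 was left out, with 3 members lower at an unadjusted p under 0.05. Without the 3 animals lowest in ALB the median was -0.45 and 9 were.

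Lists of fatty acid, antioxidant, hepatocyte identity and clock genes held no call. In the fatty acid and triglyceride synthesis list 3 of 16 were lower at an unadjusted p under 0.05, PNPLA3, a lipid droplet protein with medians of 0.981 and 5.27 CPM (log2 fold change -2.24 ± 0.82 (SE), unadjusted p = 0.00925, adjusted p = 0.246), the citrate carrier SLC25A1 (log2 fold change -0.46 ± 0.18 (SE), unadjusted p = 0.015, adjusted p = 0.295) and ACLY, which makes acetyl-CoA (log2 fold change -0.34 ± 0.15 (SE), unadjusted p = 0.0246, adjusted p = 0.346, with a log2 fold change of -0.21 without HFL/LFH animal 32). That count was 7 without HFL/LFL animal 17 and 2 without HFL/LFL animal 44 or HFL/LFH animal 32. In fatty acid oxidation 3 of 17 were lower and 1 higher at that level, and none was called. Without HFL/LFH animal 43 or HFL/LFL animal 44, 1 was lower. LONP2, the peroxisomal protease, did not overlap, with 487 to 549.6 CPM in HFL/LFL (median 529) and 597 to 858 CPM in HFL/LFH (median 637) (log2 fold change -0.40 ± 0.12 (SE), unadjusted p = 0.00252, adjusted p = 0.152). Of 16 antioxidant genes tested 2 were lower, the peroxiredoxins PRDX6 (log2 fold change -0.37 ± 0.12 (SE), unadjusted p = 0.00279, adjusted p = 0.159) and PRDX3 (log2 fold change -0.37 ± 0.17 (SE), unadjusted p = 0.0372, adjusted p = 0.414), and none was higher, at an unadjusted p under 0.05, and 1 to 3 were lower with 1 animal left out. The glycolytic enzyme LDHA was 185 to 532 CPM in HFL/LFL (median 328) and 116 to 269 CPM in HFL/LFH (median 164) (log2 fold change 0.97 ± 0.24 (SE), unadjusted p = 2.60e-04, adjusted p = 0.0636). Hepatocyte identity genes had 0 of 8 past that level and a median of -0.047 (-0.12 to 0.022 with 1 animal left out). The clock list had 0 of 10 and a median of -0.13 (-0.20 to -0.069 with 1 animal left out).

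Of 15 genes induced within hours by handling or corticosteroids none was called, 6 had fold changes above 0 and 3 were lower at an unadjusted p under 0.05. DUSP1, a phosphatase of MAP kinases, was 184 to 394 CPM in HFL/LFL (median 271) and 245 to 852 CPM in HFL/LFH (median 466.2) (log2 fold change -0.90 ± 0.25 (SE), unadjusted p = 8.03e-04, adjusted p = 0.105), and TSC22D3, a glucocorticoid-induced leucine zipper protein, was 179.7 to 239 CPM in HFL/LFL (median 206) and 148 to 694 CPM in HFL/LFH (median 415) (log2 fold change -0.89 ± 0.29 (SE), unadjusted p = 0.0032, adjusted p = 0.166). NR4A1 was 117 CPM in HFL/LFH animal 43, against no more than 15.8 CPM in the other 5 (log2 fold change -1.71 ± 0.57 (SE), unadjusted p = 0.00473, adjusted p = 0.194), and its fold change was 0.092 without animal 43 and -0.060 without the 3 animals lowest in ALB. The median of the list was -0.19, and 0.047 without animal 43. Of 16 endoplasmic reticulum and integrated stress genes tested 4 were higher at an unadjusted p under 0.05, among them the chaperones PDIA6 (log2 fold change 0.36 ± 0.14 (SE), unadjusted p = 0.0167, adjusted p = 0.306) and HSP90B1 (log2 fold change 0.35 ± 0.17 (SE), unadjusted p = 0.0421, adjusted p = 0.428, with a log2 fold change of 0.22 without HFL/LFL animal 49). That count was 1 without HFL/LFL animal 49 or 53, 8 without HFL/LFL animal 44, and 6 without the 3 animals lowest in ALB.

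The remaining called genes belonged to no list above or to lists with no other call. PHLDA1, a pleckstrin homology protein, was 18.4 to 84.9 CPM in HFL/LFL (median 48.6) and 12.5 to 23.2 CPM in HFL/LFH (median 18.99) (log2 fold change 1.44 ± 0.28 (SE), adjusted p = 0.0166), and HFL/LFL animal 49 (18.4 CPM) lay within the HFL/LFH range. HACD4, a dehydratase of very long chain fatty acid elongation, was 4.06 to 8.32 CPM in HFL/LFL (median 5.99) and 1.79 to 4.22 CPM in HFL/LFH (median 2.88) (log2 fold change 1.14 ± 0.24 (SE), adjusted p = 0.0232). MREG, a regulator of organelle transport, was 7.65 to 19.6 CPM in HFL/LFL (median 17.8) and 4.37 to 11.9 CPM in HFL/LFH (median 6.01) (log2 fold change 1.14 ± 0.26 (SE), adjusted p = 0.038), and the ubiquitin ligase NEDD4L was 83.9 to 166 CPM in HFL/LFL (median 126) and 49.9 to 92.5 CPM in HFL/LFH (median 76.6) (log2 fold change 0.75 ± 0.16 (SE), adjusted p = 0.0291). KRT23, a type I keratin, was 3.03 to 13.9 CPM in HFL/LFL (median 8.98) and 0 to 5.31 CPM in HFL/LFH (median 2.29) (log2 fold change 1.94 ± 0.44 (SE), adjusted p = 0.038). KRT7, the keratin of bile ducts, had an interval of -0.54 to 1.26. ABCB1, a drug efflux pump, was 1.25 to 3.14 CPM in HFL/LFL (median 1.74) and 0 to 0.814 CPM in HFL/LFH (median 0.444) with no overlap (log2 fold change 2.15 ± 0.48 (SE), adjusted p = 0.038). The symbols ABCB1.1 and ABCB1.2, given to other guinea pig genes with the same human orthologue, had log2 fold changes of -0.76 ± 0.75 (SE) and -0.10 ± 0.26 (SE).

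The other 4 called genes were lower in HFL/LFL and belonged to no list. ATP4A, the alpha subunit of the gastric proton pump, was 5.23 to 13.3 CPM in HFL/LFL (median 10.6) and 14.4 to 27.6 CPM in HFL/LFH (median 15.6) with no overlap (log2 fold change -0.95 ± 0.20 (SE), adjusted p = 0.0232). GPC1, a heparan sulfate proteoglycan, was 54.8 to 100.1 CPM in HFL/LFL (median 85.5) and 70.997 to 290.4 CPM in HFL/LFH (median 198) (log2 fold change -1.27 ± 0.28 (SE), adjusted p = 0.0373), and HFL/LFH animal 43 (70.997 CPM) was the lone member of its group within the HFL/LFL range. FGD1, which activates the GTPase CDC42, was 12.3 to 17.2 CPM in HFL/LFL (median 12.9) and 17.7 to 24.3 CPM in HFL/LFH (median 19.3) (log2 fold change -0.53 ± 0.12 (SE), adjusted p = 0.0439), and MINDY4, a deubiquitinase, was 34.7 to 43.1 CPM in HFL/LFL (median 39.8) and 48.7 to 74.1 CPM in HFL/LFH (median 61.2) (log2 fold change -0.64 ± 0.15 (SE), adjusted p = 0.0439), both with no overlap.

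Symbols with no overlap showed genes that the threshold left out. Among those lower in HFL/LFL were OAF at 348 to 544 CPM in HFL/LFL (median 441) and 564 to 889 CPM in HFL/LFH (median 733) (log2 fold change -0.75 ± 0.19 (SE), unadjusted p = 2.35e-04, adjusted p = 0.0636), the mitochondrial ferredoxin reductase FDXR at 161 to 204 CPM in HFL/LFL (median 183) and 222 to 463 CPM in HFL/LFH (median 262) (log2 fold change -0.69 ± 0.18 (SE), unadjusted p = 3.10e-04, adjusted p = 0.0636), and TAPT1, FLYWCH1, TKFC and RBP5, a retinol carrier, with log2 fold changes from -0.52 to -0.58. Among those higher were the GTPase ARL11 (log2 fold change 1.44 ± 0.36 (SE), unadjusted p = 2.93e-04, adjusted p = 0.0636, with a log2 fold change of 0.92 without HFL/LFL animal 68), the lysosomal PLD3 (log2 fold change 0.57 ± 0.22 (SE), unadjusted p = 0.0133, adjusted p = 0.283), the matrix protein TGFBI (log2 fold change 0.51 ± 0.17 (SE), unadjusted p = 0.00403, adjusted p = 0.18) and the leukocyte kinase PIK3CG (log2 fold change 1.09 ± 0.45 (SE), unadjusted p = 0.02, adjusted p = 0.321).

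The same vitC contrast on continued high fat feed used other animals. Between HFL/HFL and HFL/HFH 1 symbol was called (0.0131%), PADI6, which reached 205 CPM in 1 HFL/HFH animal, against no more than 0.343 CPM in the other 5. At an unadjusted p under 0.05, 123 symbols were higher (1.61%) and 136 lower (1.78%). Of the 17 genes called on low fat feed, 7 had the same direction on high fat feed and 1, MREG, also an unadjusted p under 0.05 (0.46 ± 0.22 (SE)). Over all 7629 symbols 3474 had the same direction and 119 of these an unadjusted p under 0.05 on high fat feed. LRG1 differed by -0.16 ± 0.32 (SE), APCS by -0.16 ± 0.21 (SE) and HPX by -0.0031 ± 0.26 (SE) on the log2 scale. The median of the acute phase list was -0.057, of lipid-associated macrophage genes 0.17, of antigen presentation 0.11 and of cholesterol synthesis -0.055.

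Whether the vitC difference itself differed between feeds was tested by the interaction of vitC and fat. No symbol was called (0%) with edgeR, 629 had an unadjusted p under 0.05, and 3 were called with DESeq2, LRG1, ADAMTS4 and MOCS3. The smallest p belonged to LRG1 (unadjusted p = 1.97e-05, adjusted p = 0.15), followed by ECE1, ADAMTS4, POU2AF1 and NYNRIN. ADAMTS4, a protease of proteoglycans, had log2 fold changes of 1.89 ± 0.52 (SE) on low fat and -0.93 ± 0.43 (SE) on high fat feed. ECE1, which activates endothelin, had 0.20 ± 0.11 (SE) and -0.41 ± 0.10 (SE). The interaction contains the low fat contrast, so genes chosen by that contrast are no independent test of it.

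**Figure D4:**
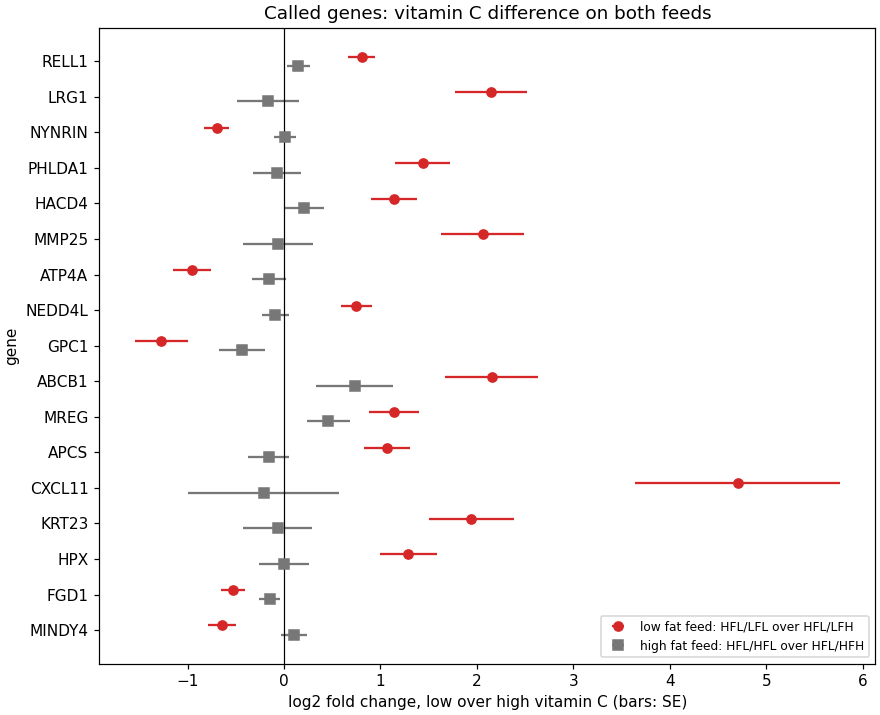
Log2 fold change of low over high vitC, with SE as bars, for the 17 called genes on low fat feed (circles) and, in other animals, on high fat feed (squares). On high fat feed the values lay from -0.44 for GPC1 to 0.73 for ABCB1.

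Levels were also set beside the lifelong groups. Between HFL/LFL and LFH 590 symbols were called (7.73%), and between HFL/LFH and LFH 27 (0.354%). Both comparisons share the LFH animals, and the difference between these counts was not tested. Lipid-associated macrophage genes had a median log2 fold change over LFH of 1.05 in HFL/LFL (8 of 14 called higher) and of 0.29 in HFL/LFH (3 called higher). For acute phase genes these medians were 0.70 and -0.20, for antigen presentation 0.79 and 0.085, and for cholesterol synthesis -0.46 and -0.055.

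The direction of the vitC difference was set against the lifelong fat difference, HFH over LFH, which uses none of the 12 animals. There 3744 of all symbols were called (49.1%), 27.5% higher and 21.6% lower on high fat. Of the 498 symbols higher in HFL/LFL at an unadjusted p under 0.05, 303 (60.8%) were called higher on high fat and 32 (6.43%) lower. Of the 333 lower in HFL/LFL, 158 (47.4%) were called lower on high fat and 32 (9.61%) higher. Of the 17 called genes 9 were called higher and 3 lower on high fat, and these directions matched for RELL1, HACD4, NEDD4L, ABCB1, MREG, KRT23, NYNRIN and MINDY4. MREG rose from a median of 3.40 CPM in LFH to 39.7 CPM in HFH, with 6.01 in HFL/LFH and 17.8 in HFL/LFL. Acute phase genes did not share this order. On lifelong high fat 9 of 14 were called lower and 2 higher, and CP fell by 1.15 on the log2 scale while its fold change in HFL/LFL over HFL/LFH was 1.28. HPX was likewise called lower on high fat and higher in HFL/LFL, and ATP4A, FGD1 and GPC1 were called higher on high fat and lower in HFL/LFL.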

How the data were processed

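Liver RNA of 44 guinea pigs was sequenced, with 1 library per animal, and the comparisons here turn on 12 of them. The authors deposited raw counts per gene symbol. The submitters' processing notes name bcl2fastq 2.19, Trimmomatic 0.38.0, HISAT2 2.1.0, StringTie 2.1.1 and DESeq2. How StringTie output became counts and whether strand was used are not given in the sources used here, so antisense and overlapping genes cannot be told apart. A second deposited table of transformed values was not used. Of 11967 rows, 236 had no symbol. They held 2.30% to 3.07% of the counts and were left out. Symbols with identical counts in all animals (762 of those tested) cannot be told apart, and symbols with a numbered suffix are other guinea pig genes of 1 human symbol.

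Symbols with a total of at least 200 counts were fitted in R 4.3.3 with the quasi-likelihood test of edgeR 4.0.16 (TMM normalisation, 6 group means over 44 animals, Benjamini-Hochberg adjustment over all symbols tested, two-sided). CPM are per effective library size. SE is the fold change divided by the square root of F. limma 3.58.1 (voom) and DESeq2 1.42.0 were alternatives, with other filters, another normalisation and each animal left out. The fits with rows lacking a symbol, and without the 3 animals lowest in ALB, were chosen after seeing the data. The scripts were tested on simulated data.

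The groups and the 39 gene lists were chosen with earlier results of these data known. Genes named by rule were those called, up to 4 members per list with the smallest p and a mean of at least 1 CPM, all tested members of the lists of ascorbate transport and of ascorbate-dependent collagen enzymes, the 5 with the smallest p in the interaction, and up to 10 per direction whose CPM did not overlap. Other list members, PADI6, MOCS3 and the other copies of ABCB1 were named after their values were seen. Some genes the rule names are not reported here.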

Additional observations from a re-analysis of the deposited data

Results flagged for a closer look

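Values in CPM were examined in both groups of 6 for the 138 genes named, and a sample was set apart where its gap to the nearest other exceeded Dixon's limit for 6 samples. For normally distributed values chance gives about 1 in 20 groups, and 28 of 276 were marked (10.1%). CPM were not log-transformed here, so that rate need not hold for them. Genes share animals, so the marks are not independent.

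HFL/LFL animal 68 was highest of its group for ADAMTS4 (30.6 CPM, others 4.998 to 12.5), ARL11 (9.91 CPM, others 2.29 to 3.13), CXCL10 (275 CPM, others 8.37 to 24.2), CXCL11 (12.9 CPM, others 0 to 0.566), IDO1 (226 CPM, others 1.71 to 6.38) and PSMB9 (169 CPM, others 48.6 to 75.01). HFL/LFH animal 43 was highest of its group for CD3G (12.8 CPM, others 3.53 to 6.77), NR4A1 (117 CPM, others 3.84 to 15.8) and S100A9 (4.18 CPM, others 0 to 0.604). HFL/LFH animal 43 was lowest of its group for GSTO1 (941 CPM, others 1342 to 1511) and PLD3 (98.97 CPM, others 162 to 178). HFL/LFL animal 44 was highest of its group for CCL2 (3.55 CPM, others 0.667 to 1.35) and KRT7 (45.3 CPM, others 11.96 to 21.6). HFL/LFL animal 44 was lowest of its group for AKR1A1 (295 CPM, others 362 to 394) and CFB (4079 CPM, others 6373 to 7689.8). HFL/LFH animal 4 was highest of its group for CCND1 (262 CPM, others 77.4 to 137), FDXR (463 CPM, others 222 to 312) and P4HA1 (136 CPM, others 27.9 to 67.4). HFL/LFL animal 17 was highest of its group for PRDX6 (639 CPM, others 438 to 501) and THBS1 (90.5 CPM, others 23.4 to 30.97). HFL/LFL animal 17 was lowest of its group for PECAM1 (132 CPM, others 153 to 161). HFL/LFH animal 58 was highest of its group for MS4A1 (4.37 CPM, others 1.06 to 2.26) and TLR8 (7.30 CPM, others 3.18 to 4.23). HFL/LFL animal 49 was highest of its group for LYVE1 (339.9 CPM, others 220.4 to 261) and SQLE (131 CPM, others 58.9 to 81.2). HFL/LFH animal 32 was highest of its group for TIMP2 (119 CPM, others 64.3 to 83.02). HFL/LFL animal 13 was highest of its group for CD3G (14.4 CPM, others 3.50 to 7.36). HFL/LFH animal 33 was highest of its group for KRT7 (42.5 CPM, others 8.83 to 15.2).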

How the results depend on the processing

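The count of called genes in HFL/LFL versus HFL/LFH was 17 with edgeR on all animals. It was 0 in the 12 animals alone, 38 with limma voom (17 of them higher), 80 with DESeq2 (51 higher), 9 without the 3 animals lowest in ALB, and 3 to 53 with 1 animal left out. The cause was not tested, except that the fit of 12 animals has fewer samples to estimate the spread. It was 17 with RLE normalisation, with the filterByExpr filter, with distinct count profiles and with rows lacking a symbol, and 14 with no filter. All 17 were among those DESeq2 called. Only 11 were among those of limma voom, which did not call ABCB1, MREG, CXCL11, KRT23, HPX and MINDY4 (adjusted p = 0.0505 to 0.364 by limma voom). With no filter HPX, FGD1 and MINDY4 were lost. For HFL/HFL versus HFL/HFH the 1 call was lost under filterByExpr (0 calls), and the interaction had 3 calls with DESeq2 and 0 with edgeR under each other setting run. The 2 groups are different animals, allocated at random, so no paired analysis applies.

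Of the genes named, log2 fold changes that changed sign all belonged to genes with no call. With limma voom with sample quality weights they were -0.56 for CD163, 0.34 for CD3D, 0.054 for COL6A2, -0.040 for EGLN1, -0.053 for IL6R, -0.038 for LYVE1, 0.034 for P3H1 and -0.088 for SLC2A2. Without the 3 animals lowest in ALB they were -0.025 for CD163, 0.39 for CD3D, 0.069 for CD79A, -0.060 for EGLN1, -0.022 for GSTO2, -0.24 for IL6R, -0.039 for LYVE1, 0.15 for P3H1, -0.19 for P4HA1 and -0.094 for SLC2A2. With 1 animal left out the ranges were -0.23 to 0.00032 for BBOX1, -0.75 to 0.18 for CCL2, -0.29 to 0.61 for CD163, -0.18 to 0.26 for CD3D, -0.25 to 0.39 for CD3G, -0.043 to 0.19 for COL5A2, -0.55 to 0.16 for COL6A2, -0.029 to 0.13 for EGLN1, -0.38 to 0.61 for GSTO2, -0.15 to 0.27 for IL6R, -0.10 to 0.16 for KDR, -0.081 to 0.11 for LYVE1, -1.94 to 0.092 for NR4A1, -0.27 to 0.17 for P3H1, -0.020 to 0.49 for P4HA1, -0.073 to 0.44 for P4HA3, -0.13 to 0.21 for SLC2A2 and -0.11 to 0.13 for TXN. Low counts limit the symbols near the floor, and 6 animals per group leave intervals of the width given in the report.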

Other observations

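Gene groups outside the comparisons above gave these values, with fold changes as HFL/LFL over HFL/LFH. Of 24 cell cycle genes tested 4 were higher (2 without HFL/LFH animal 3) and 1 lower at an unadjusted p under 0.05 by edgeR, and none was called. RRM2, a subunit of ribonucleotide reductase, was 0.454 to 2.004 CPM in HFL/LFL (median 1.12) and 0.145 to 0.872 CPM in HFL/LFH (median 0.374) (log2 fold change 1.41 ± 0.54 (SE), unadjusted p = 0.0121, adjusted p = 0.272), and FBXO5, an inhibitor of mitotic protein degradation, had 90 counts over all HFL/LFL animals and 14 over all HFL/LFH animals. CCND1, the G1 cyclin, had the opposite sign at 66.5 to 103 CPM in HFL/LFL (median 76.02) and 77.4 to 262 CPM in HFL/LFH (median 109) (log2 fold change -0.73 ± 0.21 (SE), unadjusted p = 0.00103, adjusted p = 0.119), and its log2 fold change was -0.41 (adjusted p = 0.527) without HFL/LFH animal 4.

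In the lipid transport list 3 of 17 were higher and 3 lower at an unadjusted p under 0.05. ABCG1, which exports cholesterol from macrophages, was 38.9 to 93.6 CPM in HFL/LFL (median 59.1) and 27.1 to 56.7 CPM in HFL/LFH (median 37.4) (log2 fold change 0.64 ± 0.21 (SE), unadjusted p = 0.00343, adjusted p = 0.173). APOC1, an apolipoprotein counted together with APOC2, did not overlap, at 2712 to 4406 CPM in HFL/LFL (median 3964) and 4819 to 6129 CPM in HFL/LFH (median 5324) (log2 fold change -0.52 ± 0.19 (SE), unadjusted p = 0.00881, adjusted p = 0.241). Of 23 glycolytic genes and HIF1 targets 4 were higher and 1 lower, with hexokinase HK2 at 4.37 to 9.86 CPM in HFL/LFL (median 5.96) and 2.18 to 4.97 CPM in HFL/LFH (median 3.65) (log2 fold change 0.85 ± 0.27 (SE), unadjusted p = 0.00324, adjusted p = 0.167). Hemoglobin HBA1, a red blood cell marker counted together with HBA2, was 222 to 1286 CPM in HFL/LFL (median 486) and 88.8 to 551 CPM in HFL/LFH (median 309) (log2 fold change 1.002 ± 0.70 (SE), unadjusted p = 0.159, adjusted p = 0.68). Its log2 fold change was 0.59 without HFL/LFL animal 68 and 1.71 without the 3 animals lowest in ALB, and its part in other results was not tested. Of the protease list ADAMTS9 and the inhibitor TIMP2 had log2 fold changes of 0.71 ± 0.33 (SE) and 0.36 ± 0.17 (SE), and that of ADAMTS9 was 0.30 (adjusted p = 0.834) without HFL/LFL animal 68.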
